A study of Mus musculus with 8 samples.

Results

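Hearts of mice lacking MAFbx were compared 1 day after myocardial infarction (MI) with sham-operated hearts of the same genotype. The comparison takes in 4 of the 8 arrays of the series, chosen by their labels: the 2 KO MI arrays against the 2 KO sham arrays. KO stands for the genotype the labels give as MAFbxKO, without saying which part of the gene was deleted or whether it was deleted in muscle alone. In KO MI hearts the left coronary artery had been ligated permanently, and the labels place the heart 1 day after MI. For KO sham hearts the labels give the condition sham and no time. The other 4 arrays, 2 WT MI and 2 WT sham, come from wild-type hearts treated the same way and are used to set the spread and to show where the KO response differed. Age, sex and strain background are not given in the labels. Nor do they say if 2 arrays of a group are 2 animals. The p-values therefore rest on the spread between these arrays, and that spread may be technical. RNA came from mouse heart without a named region, so infarct, border and remote muscle are not told apart.

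A coronary ligation starves part of the ventricular wall of oxygen, and the muscle there dies within hours. Dying cells release signals that bring in neutrophils and then monocytes, which clear debris and release proteases, while fibroblasts and plasma proteins lay down a provisional matrix before collagen scar forms. Surviving muscle is stretched and answers with natriuretic peptides and stress proteins. MAFbx, also called atrogin-1 and encoded by Fbxo32, is the substrate-binding subunit of a ubiquitin ligase of striated muscle that marks proteins for the proteasome, and calcineurin is among its known targets in the heart. Cardiac rupture, the tearing of the softened wall after infarction, is the subject named in the title.

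The levels given are log2 expression values, so a difference of 1 is 2-fold. In what follows sham and MI mean KO arrays unless WT is named, with replicate 1 before replicate 2. Fbxo32, the targeted gene, read 4.68 and 5.17 in sham and 5.14 and 5.46 in MI. WT values were 8.76 and 8.79 in WT sham and 8.35 and 8.21 in WT MI. It was low in every KO array. Its difference between KO MI and KO sham missed the threshold (log2 fold change 0.37, adjusted p = 0.184 with limma), and adjusted p ran from 0.0355 to 0.655 over the fits without 1 array. Heart muscle markers, named to check the tissue label, were high on all 4 KO arrays: Myh6, the alpha myosin heavy chain, read 13.10 and 13.31 in sham and 13.10 and 12.97 in MI, and Tnnt2, cardiac troponin T, read 13.67 and 13.74 in sham and 13.77 and 13.74 in MI.

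The KO sham arrays were apart from each other in some transcripts. The second principal component held 8.56% of the variance. On it KO sham replicate 1 lay at -21.2 and replicate 2 at 15.3, while the KO MI arrays lay at 16.2 and 8.64. WT sham lay at 0.56 and 0.13 and WT MI at 0.63 and -20.2, so another array lay near KO sham replicate 1. The component did not follow the liver means below: WT sham replicate 2 had the highest of them and lay at 0.13. The first component, with 73.92% of the variance, set MI apart from sham. Transcripts of liver, atrium and fat were higher in KO sham replicate 1 than on the other 3 KO arrays. The mean over 16 measured liver markers was 6.40 in KO sham replicate 1, 4.51 in KO sham replicate 2, and 4.53 and 4.68 in the KO MI arrays. In WT it was 5.80 and 6.70 in sham and 4.69 and 4.89 in MI. For 10 atrial markers it was 7.09 and 6.50 in KO sham and 7.10 and 7.90 in WT sham. KO sham replicate 2 was thus the lowest of the 4 sham arrays on both lists. Alb, the plasma protein albumin, read 10.005 and 5.56 in sham and 3.64 and 3.82 in MI. Myl4, the atrial light chain, read 9.15 and 7.08 in sham and 6.45 and 6.58 in MI. Car3, a carbonic anhydrase on the list of fat markers, read 7.95 and 5.17 in sham and 4.39 and 4.36 in MI. It had the lowest log2 fold change (-2.18) of 13 measured fat markers, of which 0 rose and 0 fell (median -0.08). The mean of the fat markers was 6.88 and 6.44 in sham and 6.37 and 6.52 in MI. Of the liver markers 1 fell with all arrays, 13 fell without KO sham replicate 2, 1 without KO sham replicate 1 and 0 without either KO MI array. Hp, the acute-phase protein haptoglobin, was the 1 liver marker that rose: it read 5.54 and 4.27 in sham and 6.70 and 6.77 in MI (3.56-fold higher, log2 fold change 1.83, SE 0.35, limma adjusted p = 0.00534). What part these transcripts have in the changes of other genes was not tested.

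**Figure D1:**
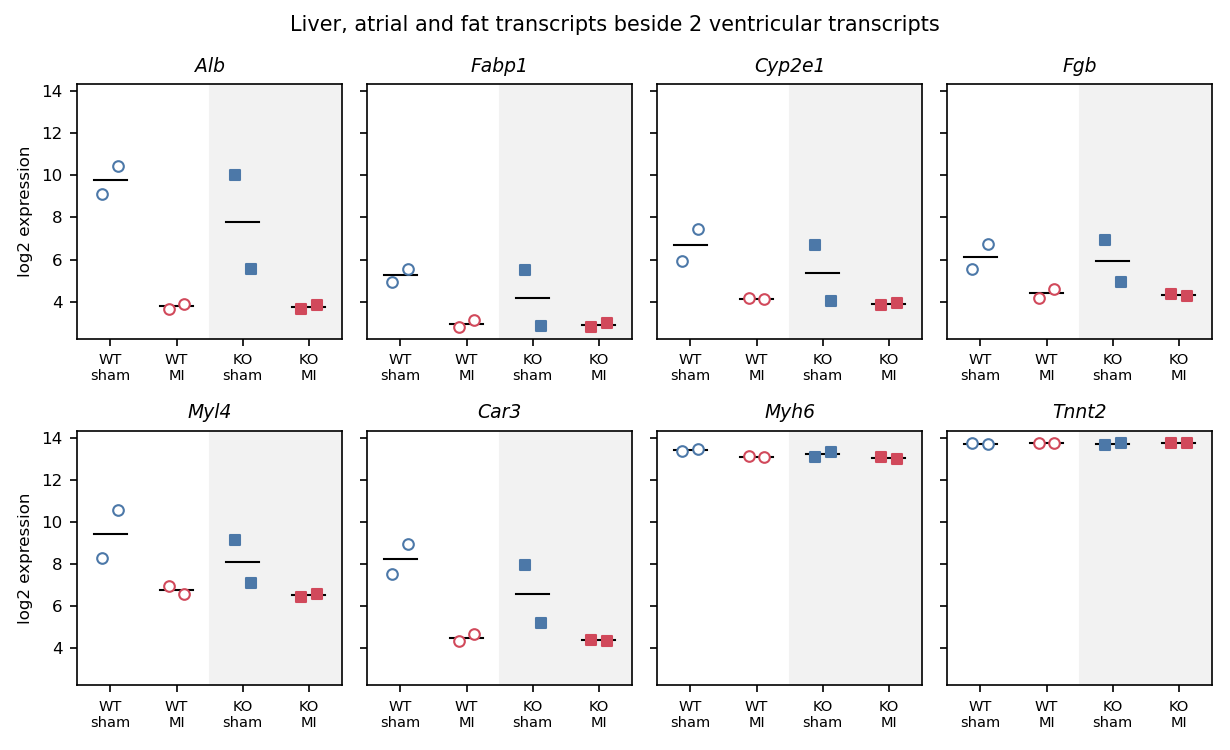
Log2 expression of 8 genes on each of the 8 arrays, with WT arrays as open circles, KO arrays as filled squares on a grey ground, sham in blue, MI in red, and a bar at the mean of 2 arrays. Alb, Fabp1, Cyp2e1, Fgb, Myl4 and Car3 were higher in KO sham replicate 1 (left square) than in replicate 2, while the ventricular genes Myh6 and Tnnt2 lay close together on all arrays.

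Infarction changed the KO heart broadly at day 1. Of 19938 genes tested, 2098 rose (10.5%) and 2044 fell (10.3%) at an adjusted p under 0.05 with limma, a linear model with a spread shared across genes. The fit was repeated without each of the 8 arrays in turn. In all of these fits 1027 rises (5.15%) and 713 falls (3.58%) kept the call, and they are named held below. The loss came mainly with the infarcted arrays: without KO MI replicate 1 there were 1271 rises and 1034 falls, and without KO MI replicate 2 there were 1276 and 970. The rises were also the larger changes, with 154 held rises and 12 held falls of at least 4-fold. Gene lists by function are described by how many measured members rose or fell and by their median log2 fold change. That median was 0.01 over all genes. Most genes named below were picked for a small p or for arrays without overlap, so separate arrays are no added support. The share of all genes with separate arrays is not given here.

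Timp1, an inhibitor of matrix metalloproteinases, had the highest fold among held rises. It read 5.79 and 5.86 in sham and 11.88 and 11.61 in MI, a rise of 60.7-fold (log2 fold change 5.92, SE 0.23, limma adjusted p = 1.12e-06). Lcn2, the iron-binding lipocalin of neutrophils and injured epithelium, read 5.75 and 6.11 in sham and 11.78 and 11.57 in MI, a rise of 53.8-fold (log2 fold change 5.75, adjusted p = 3.93e-07). Sprr1a, a cornified envelope protein that stressed heart muscle also makes, read 4.78 and 5.64 in sham and 10.53 and 9.15 in MI, a rise of 24.7-fold (log2 fold change 4.62, adjusted p = 7.03e-05). In all 3 genes both infarcted arrays lay far above both sham arrays, and the rule for picking the largest rises required arrays without overlap. For Sprr1a the infarcted arrays were also apart from each other. Aldh1a2, which makes retinoic acid in the epicardium, read 4.76 and 5.51 in sham and 9.43 and 9.03 in MI and rose 17.05-fold (log2 fold change 4.09, adjusted p = 7.81e-06). It was the 1 held rise among 12 measured markers of mesothelium and epicardium. Of these 2 rose and 0 fell, with 1 rise without KO sham replicate 2 or either KO MI array. The markers Wt1 and Msln missed the threshold, with log2 fold changes of -0.38 and 0.11.

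Mrgprh, an orphan receptor, had the largest held fall. It read 8.15 and 8.59 in sham and 5.26 and 5.47 in MI, 8.002-fold lower after infarction (log2 fold change -3.00, SE 0.21, limma adjusted p = 1.55e-05). Penk, the enkephalin precursor, read 7.79 and 8.09 in sham and 5.87 and 5.59 in MI (4.62-fold lower, log2 fold change -2.21, adjusted p = 1.89e-05). Aplnr, the apelin receptor, read 9.33 and 9.47 in sham and 7.68 and 6.995 in MI (4.17-fold lower, log2 fold change -2.06, adjusted p = 0.000508). The arrays of the 2 conditions did not overlap in any of the 3, which the rule for picking the largest falls required. Itgb6, an integrin subunit that activates TGF-beta, was 4.56-fold lower, the ephrin ligand Efnb3 3.56-fold lower and the methyltransferase Inmt 3.48-fold lower, all held. Hmcn1 read 9.87 and 8.56 in sham and 7.13 and 6.88 in MI and Lgals4 read 8.70 and 7.40 in sham and 5.76 and 5.93 in MI. Both were among the largest held falls, yet their sham arrays were apart, with the higher value in replicate 1. The Hmcn1 probe was the highest of 77 probes annotated to that gene, which makes it an uncertain reading of Hmcn1.

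**Figure D2:**
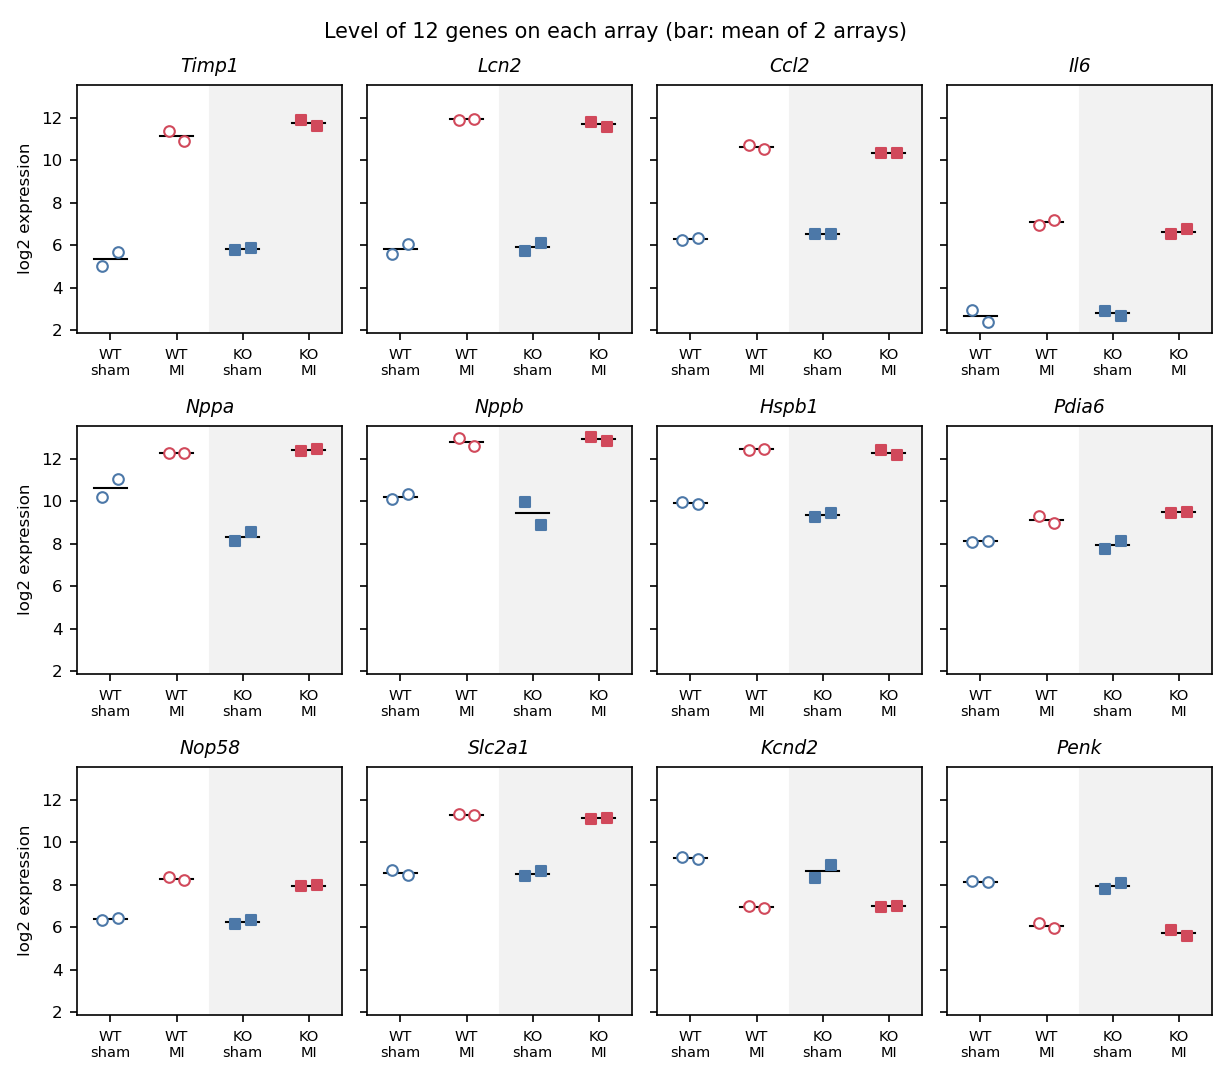
Log2 expression of 12 genes on each of the 8 arrays, with symbols as in the plot of liver and atrial transcripts and a bar at the mean of 2 arrays. In the KO groups (grey ground) Timp1, Lcn2, Ccl2, Il6, Nppa, Nppb, Hspb1, Pdia6, Nop58 and Slc2a1 were higher on both MI arrays than on both sham arrays, and Kcnd2 and Penk were lower.

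Neutrophil transcripts rose in KO hearts. Of 22 measured neutrophil markers 15 rose, 15 held, and 0 fell, against 10.5% of all genes that rose. Their median was 2.98. The mean level of the list was 4.16 and 4.13 in the KO sham arrays and 6.67 and 6.84 in the KO MI arrays. S100a8, a subunit of calprotectin, read 4.14 and 3.40 in sham and 8.70 and 8.79 in MI (31.4-fold higher, log2 fold change 4.97, adjusted p = 1.16e-05). Cxcr2, the chemokine receptor of neutrophils, read 3.51 and 3.09 in sham and 7.76 and 8.91 in MI (32.7-fold higher, log2 fold change 5.03, adjusted p = 1.81e-05). Mmp9, the gelatinase stored in neutrophil granules, read 5.40 and 5.38 in sham and 8.28 and 8.88 in MI (9.11-fold higher, log2 fold change 3.19, adjusted p = 8.52e-06). No sham value reached an infarcted one. In sham S100a8 and Cxcr2 lay near the low end of the array, where the 10th percentile of gene means is 3.05, so their folds are uncertain. Clec4e and Clec4d, lectin receptors for damaged cells and microbes, rose 15.96-fold and 13.6-fold, and Trem1, which amplifies neutrophil activation, rose 13.3-fold. In whole-heart RNA more cells of a type and more RNA per cell cannot be told apart.

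Markers of monocytes and the macrophages they become rose as well: 17 of 21 rose, 13 held, and 0 fell (median 1.83). Arg1, the arginase of activated macrophages, read 4.95 and 4.50 in sham and 9.39 and 9.86 in MI (29.9-fold higher, log2 fold change 4.90, adjusted p = 3.32e-06). Itgam, the integrin CD11b, read 5.001 and 5.60 in sham and 9.03 and 9.18 in MI (13.96-fold higher, log2 fold change 3.80, adjusted p = 2.86e-06), and Msr1, a scavenger receptor, read 5.38 and 5.70 in sham and 8.53 and 8.51 in MI (7.87-fold higher, log2 fold change 2.98, adjusted p = 4.55e-06). Both infarcted arrays exceeded both sham arrays in each. Chil3, a chitinase-like protein of alternatively activated macrophages, read 2.53 and 2.32 in sham and 6.33 and 6.71 in MI, with its sham values at the low end of the array. Cd14, the lipopolysaccharide co-receptor, rose 5.84-fold.

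Of 15 measured markers of resident macrophages 2 rose and 4 fell (median -0.04), against 10.5% and 10.3% over all genes, and without either KO MI array 1 rose and 1 fell (1 rose without KO sham replicate 1). Igf1, a growth factor they share with fibroblasts, read 7.49 and 7.52 in sham and 6.68 and 6.58 in MI (1.83-fold lower, log2 fold change -0.87, adjusted p = 0.00191), and the held rise was F13a1, the cross-linking factor XIII (1.95-fold higher, log2 fold change 0.96, adjusted p = 0.00241). Of 17 markers of lymphocytes and natural killer cells 1 rose and 0 fell (1 fell without either WT MI array). That rise was lost in 7 of the 8 fits without 1 array and was called without KO sham replicate 1. Of 11 mast cell and eosinophil markers 1 rose and 1 fell. There were 2 rises without KO sham replicate 1 or either WT MI array, and 0 falls without KO sham replicate 1 or KO MI replicate 2. The rise was Kit, the stem cell factor receptor, which read 5.64 and 5.85 in sham and 6.93 and 7.08 in MI (2.39-fold higher, log2 fold change 1.26, adjusted p = 0.000476). Genes of dendritic cells and MHC class II rose in 3 of 13 members (5 without either WT MI array, 1 without KO MI replicate 2), led by the integrin Itgax (2.67-fold higher, log2 fold change 1.42, adjusted p = 0.00038).

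The signals that recruit these cells were up. Of 18 measured CC chemokines 11 rose, 7 held, and 0 fell (median 0.73, 1 fell without KO sham replicate 2). Ccl2, which draws monocytes, read 6.51 and 6.52 in sham and 10.35 and 10.33 in MI (14.2-fold higher, log2 fold change 3.83, SE 0.12, limma adjusted p = 3.93e-07). Ccl6 read 6.70 and 6.82 in sham and 10.43 and 10.71 in MI (14.04-fold higher, log2 fold change 3.81, adjusted p = 1.39e-06), and Ccl3, made by activated macrophages and neutrophils, rose 19.4-fold (log2 fold change 4.28, adjusted p = 1.24e-05). The infarcted arrays of Ccl2 were nearly equal and lay far from the sham arrays. Of 15 CXC chemokines 8 rose, 7 held, and 2 fell (1 without either KO sham array or KO MI replicate 2). The neutrophil attractants Cxcl2, Cxcl3 and Cxcl5 rose 19.7-fold, 11.2-fold and 10.5-fold. Cxcl9, a T cell attractant induced by interferon gamma, went the other way: it read 8.09 and 7.996 in sham and 6.63 and 6.29 in MI (log2 fold change -1.58, adjusted p = 0.00143), while Cxcl10, a second interferon-induced attractant, rose 4.52-fold (log2 fold change 2.18, adjusted p = 0.00111).

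Cytokines of the interleukin-6 family act through the gp130 receptor and STAT3, and induce acute-phase genes. Of 14 measured members 10 rose, 8 held, and 1 fell (0 without KO MI replicate 2; median 0.98). Il6 itself read 2.91 and 2.69 in sham and 6.52 and 6.76 in MI (14.3-fold higher, log2 fold change 3.84, SE 0.19, limma adjusted p = 3.32e-06), from a sham level at the low end of the array. Its relatives Osm, Lif and Il11 rose 2.99-fold, 2.58-fold and 2.49-fold. Osmr, the oncostatin M receptor of heart muscle and fibroblasts, read 8.07 and 7.91 in sham and 9.75 and 9.70 in MI (3.32-fold higher, log2 fold change 1.73, adjusted p = 1.63e-05), and Socs3, the feedback inhibitor of the pathway, read 5.64 and 5.77 in sham and 7.97 and 8.47 in MI (5.73-fold higher, log2 fold change 2.52, adjusted p = 1.34e-05). Ligands, receptor and inhibitor thus all stood higher on both infarcted arrays.

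In the interleukin-1 system 10 of 18 members rose, 7 held, and 0 fell (median 0.69). Il1b read 5.08 and 5.10 in sham and 8.58 and 8.84 in MI (12.3-fold higher, log2 fold change 3.62, adjusted p = 8.77e-07). Its decoy receptor Il1r2 rose 11.7-fold, the receptor antagonist Il1rn rose 6.79-fold and the inflammasome sensor Nlrp3 rose 2.9-fold. Il33, an alarm cytokine released by dying cells, read 5.06 and 4.62 in sham and 7.21 and 6.77 in MI (4.44-fold higher, log2 fold change 2.15, adjusted p = 0.0001). Among 20 TNF family ligands, receptors and induced genes 11 rose, 8 held, and 1 fell (0 without KO MI replicate 2; median 0.66). Tnfaip6, a hyaluronan-binding protein that TNF induces, rose 6.31-fold. The TNF receptors Tnfrsf1b and Tnfrsf1a rose 3.19-fold and 1.95-fold. NF-kB pathway genes rose in 12 of 23 members (7 without KO MI replicate 2), 6 held, with a median of 0.42. There was 1 fall, 2 without KO sham replicate 1 and 0 without KO sham replicate 2 or either KO MI array. Nfkbia, the inhibitor that NF-kB itself induces, read 8.54 and 8.14 in sham and 9.14 and 9.38 in MI (1.89-fold higher, log2 fold change 0.92, adjusted p = 0.00432), and the kinase Ikbke and the atypical inhibitor Nfkbiz rose 2.16-fold and 2.19-fold.

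Adhesion molecules rose in 13 of 19 members, 9 held, and 2 fell (median 0.95, 1 fell without either WT sham array, KO sham replicate 2 or either KO MI array). Sele, the selectin that activated endothelium shows to leukocytes, read 5.29 and 5.10 in sham and 7.30 and 7.27 in MI (4.26-fold higher, log2 fold change 2.09, adjusted p = 1.49e-05). Its ligand carrier Selplg rose 3.81-fold, the leukocyte integrin chain Itgb2 6.25-fold and the hyaluronan receptor Cd44 5.05-fold. Of 19 prostaglandin and leukotriene genes 6 rose and 2 fell (1 without KO MI replicate 1), against 10.5% and 10.3% over all genes. Ptgs2, the inducible cyclooxygenase, read 6.03 and 6.25 in sham and 9.07 and 9.42 in MI (8.62-fold higher, log2 fold change 3.11, adjusted p = 2.74e-06), and Alox5ap, needed for leukotriene synthesis, rose 3.06-fold. In Sele and Ptgs2 the infarcted arrays stood clear of the sham arrays.

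Proteases, their inhibitors and the provisional matrix bear on the strength of the wall. Of 20 measured genes listed for ties to rupture, most of them proteases, inhibitors and matrix genes that recur in the lists below, 15 rose, 11 held, and 1 fell (median 0.96). Of 15 matrix metalloproteinases 8 rose, 7 held, and 1 fell (2 without either WT sham array), with a median of 0.77. Mmp3, a stromelysin, read 5.33 and 5.53 in sham and 7.54 and 7.79 in MI (4.7-fold higher, log2 fold change 2.23, adjusted p = 7.15e-05), and Mmp14, the membrane-bound activator of other family members, read 7.34 and 7.75 in sham and 9.03 and 8.72 in MI (2.51-fold higher, log2 fold change 1.33, adjusted p = 0.000568). Both stood higher on the infarcted arrays without overlap. Mmp8, the neutrophil collagenase, rose 6.83-fold from a sham level at the low end of the array. Mmp12, the macrophage elastase, read 4.53 and 4.81 in sham and 8.04 and 6.53 in MI, with the infarcted arrays apart from each other. Of 6 measured inhibitors Timp1 alone rose. Timp2 fell from 8.72 and 8.94 to 8.39 and 8.16 (log2 fold change -0.56, adjusted p = 0.0182). That call was lost without KO sham replicate 2 or KO MI replicate 2, with adjusted p from 0.0197 to 0.145 over the fits without 1 array. Timp3 and Timp4 missed the threshold, with log2 fold changes of 0.07 and -0.22.

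Aggrecan-cleaving Adamts4 read 5.14 and 5.11 in sham and 8.55 and 8.50 in MI (10.5-fold higher, log2 fold change 3.40, adjusted p = 1.44e-06), and Adam8, a leukocyte sheddase, read 5.14 and 4.65 in sham and 8.28 and 8.06 in MI (9.65-fold higher, log2 fold change 3.27, adjusted p = 4.71e-06). Adamts5, the second aggrecanase, moved down: it read 8.36 and 8.63 in sham and 7.35 and 7.21 in MI (2.33-fold lower, log2 fold change -1.22, adjusted p = 0.000726). In all, 6 of 20 ADAM and ADAMTS genes rose and 5 fell. Falls numbered 3 without KO sham replicate 1 or KO MI replicate 2 and 2 without KO MI replicate 1. Of 18 genes of plasminogen activation and coagulation 12 rose, 10 held, and 0 fell (1 without KO sham replicate 1), with a median of 1.25. Plaur, the receptor of urokinase, read 5.24 and 5.36 in sham and 8.13 and 8.14 in MI (7.14-fold higher, log2 fold change 2.84, adjusted p = 1.48e-06), and urokinase itself, Plau, read 5.36 and 5.81 in sham and 7.197 and 7.19 in MI (3.05-fold higher, log2 fold change 1.61, adjusted p = 0.000225). Anxa2 and S100a10, which together bind plasminogen at the cell surface, rose 8.17-fold and 2.79-fold, and the urokinase inhibitor Serpinb2 rose 9.42-fold. Activator, receptor and inhibitor transcripts were thus all higher.

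Among 18 matricellular proteins, which signal to cells from the matrix without being structural, 12 rose, 9 held, and 1 fell (2 without either WT sham array, 0 without KO MI replicate 2; median 0.92). Tnc, tenascin C, which marks the infarct border, read 4.58 and 4.95 in sham and 9.51 and 9.09 in MI (23.1-fold higher, log2 fold change 4.53, adjusted p = 7.74e-06). Thbs1, thrombospondin 1, read 7.87 and 8.01 in sham and 10.92 and 11.02 in MI (8.14-fold higher, log2 fold change 3.02, adjusted p = 1.5e-05), and Ccn2, the connective tissue growth factor, read 9.67 and 9.27 in sham and 12.04 and 12.12 in MI (6.09-fold higher, log2 fold change 2.61, adjusted p = 9.46e-05). Fn1, fibronectin, read 9.19 and 9.41 in sham and 11.55 and 11.51 in MI and rose 4.68-fold (log2 fold change 2.23, adjusted p = 2.03e-05). All 4 stood apart from sham without overlap.

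Of 29 collagens and cross-linking enzymes 12 rose and 3 fell, with a median of 0.34, and 3 rises and 0 falls held (5.15% and 3.58% over all genes). There were 7 rises without KO sham replicate 1 and 3 without KO MI replicate 1. There was 1 fall without KO sham replicate 2 and 0 without either KO MI array. The held rises were Lox, the lysyl oxidase that cross-links collagen, its relative Loxl4, and Col12a1. Lox read 5.54 and 6.08 in sham and 8.68 and 8.24 in MI (6.29-fold higher, log2 fold change 2.65, adjusted p = 7.42e-05) and Loxl4 rose 3.44-fold. Col3a1, a fibrillar collagen of early scar, read 7.80 and 7.85 in sham and 8.57 and 8.39 in MI (1.58-fold higher, log2 fold change 0.66, adjusted p = 0.0097), with adjusted p values from 0.012 to 0.0837 over the fits without 1 array.

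Genes of wall stress, which stretched or dedifferentiating heart muscle turns on, rose in 13 of 18 measured members, 12 held, and fell in 0 (median 1.34). Nppa, atrial natriuretic peptide, read 8.11 and 8.52 in sham and 12.36 and 12.45 in MI (17.02-fold higher, log2 fold change 4.09, SE 0.25, limma adjusted p = 8.51e-06). Nppb, B-type natriuretic peptide, read 9.97 and 8.87 in sham and 13.02 and 12.83 in MI (11.4-fold higher, log2 fold change 3.51, adjusted p = 5.53e-05), with its sham arrays apart. Acta1, the skeletal actin of the fetal heart, read 6.97 and 7.28 in sham and 8.76 and 9.36 in MI (3.82-fold higher, log2 fold change 1.93, adjusted p = 0.000515). In these 3 genes both infarcted arrays exceeded both sham arrays. Nmrk2, a muscle kinase for NAD precursors, rose 20.4-fold, Ankrd2, a titin-associated stretch sensor, 7.24-fold, Tnfrsf12a, the TWEAK receptor, 4.24-fold, and the filamin Flnc 3.62-fold. Myh7, the beta myosin heavy chain, read 10.84 and 11.04 in sham and 11.20 and 12.08 in MI and missed the threshold (log2 fold change 0.70, adjusted p = 0.0785).

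Ribosome assembly had the largest share of rising members among the 63 lists, which were drawn up with earlier results of these data known. Ribosomes are built in the nucleolus, where RNA polymerase I makes ribosomal RNA and box C/D proteins belong to particles that methylate it. Of 31 measured genes of this process 28 rose, 22 held, and 0 fell. The log2 fold changes ran from 0.10 to 1.78. Nop58, a core box C/D protein, read 6.17 and 6.36 in sham and 7.93 and 7.98 in MI (3.24-fold higher, log2 fold change 1.70, SE 0.13, limma adjusted p = 2.93e-05). Its partner Nop56 read 8.10 and 8.23 in sham and 9.65 and 9.70 in MI (2.85-fold higher, log2 fold change 1.51, adjusted p = 4.25e-05), and the nucleolar GTPase Gnl3 read 6.91 and 6.86 in sham and 8.42 and 8.44 in MI (2.92-fold higher, log2 fold change 1.54, adjusted p = 3.65e-05). The arrays within a condition lay close together in these 3, and the conditions were far apart. Mybbp1a, Rrp12 and Npm1 (nucleophosmin) rose 2.85-fold, 3.44-fold and 2.66-fold. Myc, the transcription factor known to drive ribosome synthesis, read 6.28 and 6.41 in sham and 9.18 and 8.86 in MI (6.39-fold higher, log2 fold change 2.67, adjusted p = 4.55e-06).

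Transport and synthesis of amino acids rose beside it. Of 22 genes of amino acid, polyamine and one-carbon metabolism 17 rose, 14 held, and 1 fell (median 1.14). Slc7a5, the large neutral amino acid transporter, read 7.41 and 7.88 in sham and 9.63 and 9.60 in MI (3.92-fold higher, log2 fold change 1.97, adjusted p = 4.47e-05). Slc7a11, which imports cystine for glutathione, read 3.93 and 3.82 in sham and 6.82 and 6.57 in MI (7.07-fold higher, log2 fold change 2.82, adjusted p = 2.26e-05), and Asns, asparagine synthetase, read 6.35 and 6.54 in sham and 8.15 and 8.18 in MI (3.28-fold higher, log2 fold change 1.72, adjusted p = 1.98e-05). All 3 were higher on both infarcted arrays. Srm, spermidine synthase, and Mthfd1l, a mitochondrial folate enzyme, rose 2.75-fold and 3.27-fold. Of 21 genes of nucleotide and NAD synthesis 7 rose and 2 fell, against 10.5% and 10.3% over all genes. Uck2 and Upp1, which salvage pyrimidines, rose 6.13-fold and 4.12-fold.

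The unfolded protein response raises chaperones when the endoplasmic reticulum is overloaded, partly through the factor ATF6 binding with NF-Y at the ER stress response element, CCAAT and CCACG set 9 bases apart. Of 30 measured genes of this and the integrated stress response 21 rose, 13 held, and 1 fell (0 without KO MI replicate 1), with a median of 0.72. RefSeq promoters of the mouse build GRCm38.p6 were found for 27 of the 30 genes. The 250 bases before the start held the full element, on either strand, in 7 of them, against 0.13% of the 27025 genes in that table. The list was drawn up as known targets of the response, so this share describes the list. The stretches of the 7 promoters are shown because 6 of the 7 genes rose. In the whole list 21 of the 30 rose, and whether the element bears on the rise was not tested. The element is in capitals and each sequence is written in the direction of its gene. In Calr, Creld2 and the second Hsp90b1 stretch the element lies on the opposite strand and reads CGTGG, 9 bases, ATTGG.
Creld2, chr15:88819495-88819563, plus strand, element from 126 to 108 bases before the start: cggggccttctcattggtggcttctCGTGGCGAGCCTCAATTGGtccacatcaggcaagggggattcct
Pdia6, chr12:17266466-17266534, plus strand, element from 98 to 80 bases before the start: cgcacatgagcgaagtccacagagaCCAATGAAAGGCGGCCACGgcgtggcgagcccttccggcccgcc
Hspa5, chr2:34772000-34772068, plus strand, element from 65 to 47 bases before the start: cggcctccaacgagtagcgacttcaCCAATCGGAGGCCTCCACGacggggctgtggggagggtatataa
Dnajc3, chr14:118937802-118937870, plus strand, element from 105 to 87 bases before the start: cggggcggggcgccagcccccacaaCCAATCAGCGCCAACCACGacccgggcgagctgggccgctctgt
Hsp90b1, chr10:86705613-86705681, minus strand, element from 212 to 194 bases before the start: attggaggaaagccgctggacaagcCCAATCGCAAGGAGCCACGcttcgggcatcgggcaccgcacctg
Hsp90b1, chr10:86705508-86705576, minus strand, element from 107 to 89 bases before the start: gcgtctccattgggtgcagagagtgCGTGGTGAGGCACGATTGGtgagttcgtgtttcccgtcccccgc
Calr, chr8:84847050-84847118, minus strand, element from 162 to 144 bases before the start: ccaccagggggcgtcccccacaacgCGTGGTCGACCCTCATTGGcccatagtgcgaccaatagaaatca
Canx, chr11:50325775-50325843, minus strand, element from 145 to 127 bases before the start: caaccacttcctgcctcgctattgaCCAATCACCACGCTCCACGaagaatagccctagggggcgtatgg

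Of the 7 carriers of the element, Creld2, a secreted stress protein, read 7.88 and 8.16 in sham and 9.49 and 9.66 in MI (2.93-fold higher, log2 fold change 1.55, adjusted p = 0.000246). Pdia6, a disulphide isomerase, read 7.77 and 8.13 in sham and 9.46 and 9.51 in MI (2.9-fold higher, log2 fold change 1.54, adjusted p = 0.000173). Hspa5, the chaperone BiP, read 11.17 and 11.63 in sham and 12.49 and 12.67 in MI (2.26-fold higher, log2 fold change 1.18, adjusted p = 0.001). Dnajc3, a co-chaperone, read 8.29 and 8.44 in sham and 9.22 and 9.42 in MI (log2 fold change 0.95, adjusted p = 0.00172). These 4 rises held. Hsp90b1 and Calr, the chaperones GRP94 and calreticulin, had log2 fold changes of 0.76 and 0.73 (adjusted p = 0.0104 and 0.0129). Both calls were lost without KO MI replicate 2, and adjusted p ran from 0.00798 to 0.0711 and from 0.0114 to 0.109 over the fits without 1 array. Canx, calnexin, read 11.87 and 12.19 in sham and 12.12 and 12.28 in MI and missed the threshold (log2 fold change 0.17, adjusted p = 0.479), although its promoter holds the same letters. These 7 genes were named for the element, and Hspa5, Dnajc3, Hsp90b1, Calr and Canx fall outside the naming rule. Among members named by that rule, Sdf2l1 rose 3.87-fold and Hyou1 2.6-fold, both endoplasmic reticulum chaperones, and Atf4 and Cebpb, transcription factors of the integrated stress response, rose 2.24-fold and 2.87-fold.

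Of 23 heat shock proteins and co-chaperones 10 rose (5 without either KO MI array), 4 held, and 0 fell (1 without KO sham replicate 1), with a median of 0.42. Hspb1, the small heat shock protein HSP27, read 9.23 and 9.43 in sham and 12.38 and 12.15 in MI (7.65-fold higher, log2 fold change 2.94, adjusted p = 2.13e-06), and Hspa1a, inducible HSP70, read 7.91 and 7.06 in sham and 9.36 and 9.64 in MI (4.04-fold higher, log2 fold change 2.01, adjusted p = 0.00054). Both separated sham from infarcted arrays, though the Hspa1a sham arrays were apart from each other. Proteasome subunits rose in 21 of 38 members, 10 held, and fell in 1 (0 without either KO MI array), with a median of 0.49. Rises numbered 11 without KO sham replicate 1, 10 without KO MI replicate 1 and 12 without KO MI replicate 2. Psmd11, of the regulatory cap, read 8.68 and 8.97 in sham and 10.01 and 9.98 in MI (2.25-fold higher, log2 fold change 1.17, adjusted p = 0.000373), and Psma7, of the core, rose 1.92-fold.

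Hypoxia response genes are switched on by HIF factors, whose core site can read ACGTGC. Of 26 measured members 13 rose (8 without KO MI replicate 1), 7 held, and 3 fell (1 without KO MI replicate 1), with a median of 0.40. Those 6 letters stood, on either strand, within 250 bases before the start in 12 of the 23 members with a RefSeq promoter. Of these 12 carriers 8 rose and 1 fell. The letters stood in 5.63% of all genes with a RefSeq promoter. The list was again made of known targets, of which 13 of 26 rose, and whether the letters bear on the rise was not tested. The 3 stretches below come from the carriers among the members with the lowest p-values, with the letters in capitals. In Ero1a they lie on the opposite strand and read GCACGT.
Slc2a1, chr4:119108684-119108739, plus strand, element from 36 to 31 bases before the start: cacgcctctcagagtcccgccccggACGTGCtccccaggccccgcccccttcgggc
Ero1a, chr14:45318606-45318661, minus strand, element from 64 to 59 bases before the start: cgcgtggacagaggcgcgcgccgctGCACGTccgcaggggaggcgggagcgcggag
Pfkfb3, chr2:11553959-11554014, minus strand, element from 60 to 55 bases before the start: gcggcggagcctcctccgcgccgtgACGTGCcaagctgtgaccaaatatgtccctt

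Slc2a1, the glucose transporter GLUT1, read 8.39 and 8.65 in sham and 11.11 and 11.12 in MI (6.01-fold higher, log2 fold change 2.59, adjusted p = 4.59e-06). Ero1a, the oxidase that closes disulphide bonds in the endoplasmic reticulum, read 8.05 and 8.50 in sham and 10.55 and 10.42 in MI (4.61-fold higher, log2 fold change 2.20, adjusted p = 2.79e-05). Pfkfb3, which makes the strongest activator of glycolysis, read 5.61 and 5.44 in sham and 7.08 and 7.21 in MI (3.07-fold higher, log2 fold change 1.62, adjusted p = 8.08e-05). Each stood higher on both infarcted arrays. Adm, the vasodilator adrenomedullin, rose 4.43-fold, and Epas1, the factor HIF-2 alpha, fell from 11.33 and 11.29 to 10.58 and 10.41 (log2 fold change -0.81, adjusted p = 0.00133). Of 28 genes of glycolysis and glucose transport 15 rose, 9 held, and 6 fell, 2 held (median 0.54). Falls numbered 3 without either WT sham array and 2 without KO sham replicate 2 or KO MI replicate 1. The lactate exporter Slc16a3 read 6.23 and 5.49 in sham and 9.12 and 9.20 in MI (9.86-fold higher, log2 fold change 3.30, adjusted p = 9.36e-06), while Pfkfb2, the cardiac relative of Pfkfb3, read 9.77 and 10.03 in sham and 8.08 and 8.37 in MI (3.2-fold lower, log2 fold change -1.68, adjusted p = 0.0001). The isoforms of this enzyme thus moved in opposite directions.

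Oxidant defence was led by metal-binding and haem-degrading proteins. Mt2, a metallothionein, read 9.37 and 9.26 in sham and 12.94 and 13.002 in MI (12.7-fold higher, log2 fold change 3.66, adjusted p = 8.77e-07), and Hmox1, haem oxygenase, read 6.34 and 6.30 in sham and 9.70 and 9.83 in MI (10.9-fold higher, log2 fold change 3.45, adjusted p = 6.14e-06). Neither gene's sham arrays came near its infarcted arrays. Over 32 antioxidant, metallothionein and iron genes 11 rose, 8 held, and 3 fell (median 0.10). Falls numbered 1 without KO sham replicate 2 and 0 without either WT sham or either KO MI array. Immediate early and AP-1 genes rose in 18 of 30 members (10 without KO MI replicate 2), 10 held, with a median of 0.73. There was 1 fall, 2 without KO sham replicate 2 or KO MI replicate 2, and 0 without KO MI replicate 1. Ier3, which NF-kB induces, read 5.33 and 5.49 in sham and 8.36 and 8.22 in MI (7.38-fold higher, log2 fold change 2.88, adjusted p = 1.44e-06), and the AP-1 subunit Fosl1 rose 3.31-fold. Growth factors of the TGF-beta superfamily and others rose in 14 of 30 members, 10 held, and fell in 4, 1 held (median 0.34). Falls numbered 2 without KO sham replicate 2 or KO MI replicate 2 and 1 without KO MI replicate 1. Hbegf, the activin subunit Inhba and its inhibitor Fstl3 rose 6.87-fold, 7.85-fold and 4.88-fold.

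**Figure D3:**
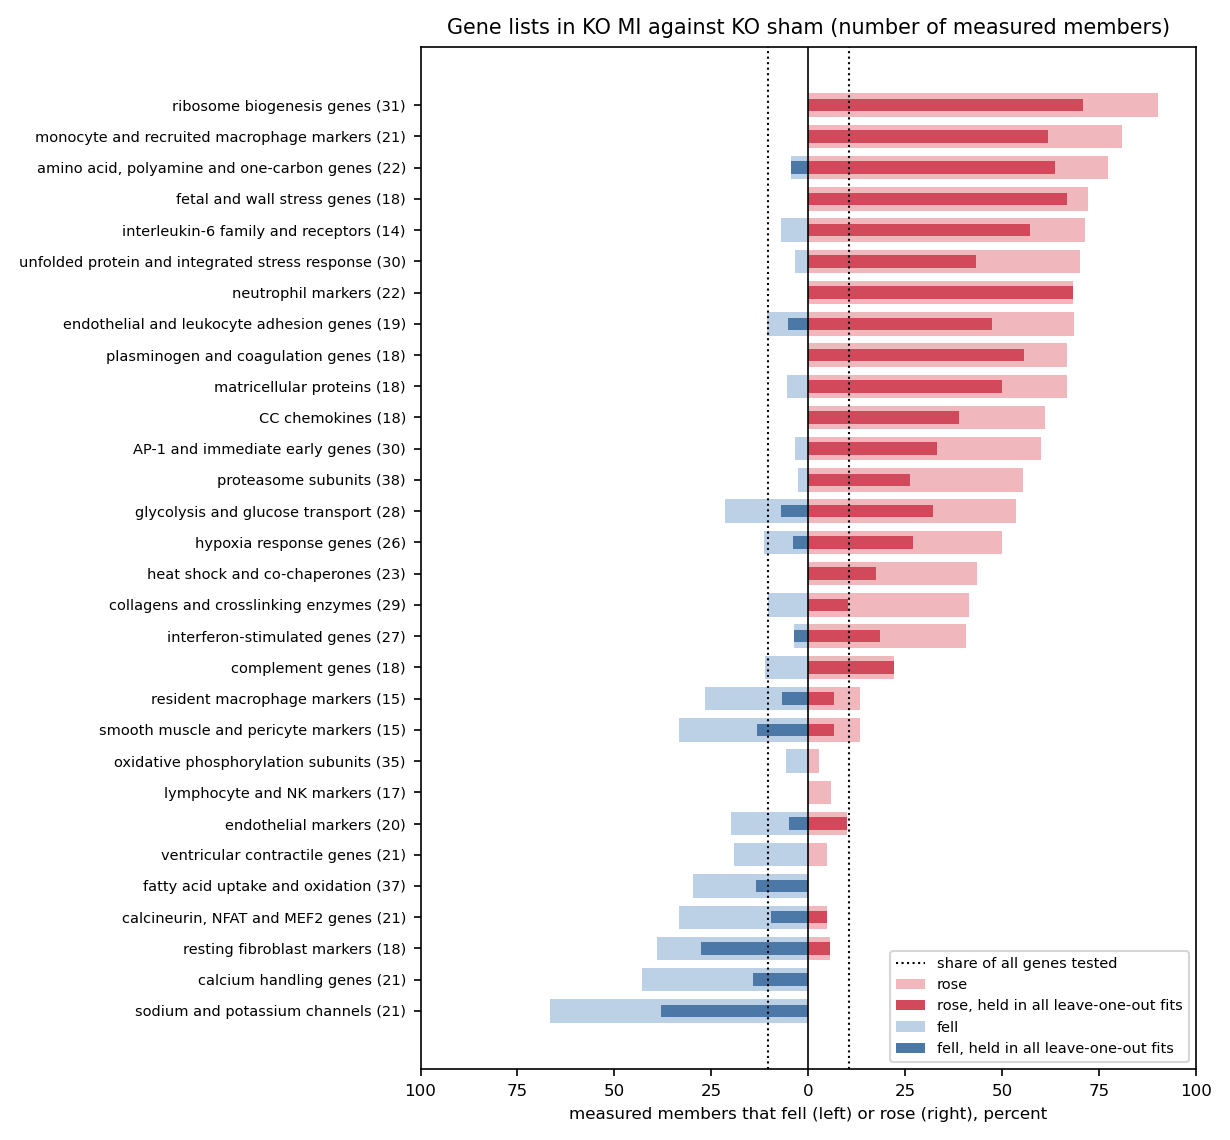
Share of measured members of 30 gene lists that rose (right, red) or fell (left, blue) in KO MI against KO sham, in percent, with the number of measured members in brackets; narrow dark bars are calls held in every fit that left out 1 array, and dotted lines mark the share over all 19938 genes (10.5% rose, 10.3% fell). Ribosome biogenesis stands at the top with 28 of 31 rises, and sodium and potassium channels at the bottom with 14 of 21 falls.

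Ion channels set the resting potential and repolarise the heart muscle cell. Of 21 measured sodium, potassium and gap junction channel genes 14 fell (9 without KO MI replicate 1), 8 held, and 0 rose (1 without KO sham replicate 2), against 10.3% of all genes that fell. Their median was -0.68. Kcnd2 and its partner Kcnip2 carry the transient outward current that repolarises the mouse ventricle. Kcnd2 read 8.33 and 8.92 in sham and 6.94 and 7.002 in MI (3.15-fold lower, log2 fold change -1.66, SE 0.18, limma adjusted p = 0.000244). Kcnip2 read 8.82 and 9.13 in sham and 7.37 and 7.58 in MI (2.83-fold lower, log2 fold change -1.50, adjusted p = 0.000171). Kcnv2, a silent subunit, read 6.69 and 7.25 in sham and 4.87 and 4.95 in MI (4.17-fold lower, log2 fold change -2.06, adjusted p = 0.000285). The arrays of the 2 conditions were apart in all 3. Kcnj3, of the acetylcholine-activated channel, was 2.86-fold lower, the background channel Kcnk3 1.84-fold lower and the subunit Kcne1 2.22-fold lower. Kcnj3 and Gja5 of this list are also on the list of atrial markers. The mean of that list was 7.09 and 6.50 in sham and 6.49 and 6.62 in MI. What part atrial tissue has in the channel values was not tested.

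Calcium handling genes fell in 9 of 21 members, 3 held, and rose in 0 (median -0.33); falls numbered 5 without KO sham replicate 2 and 4 without either KO MI array. Cacna1c, the pore of the L-type calcium channel, read 10.63 and 10.58 in sham and 9.51 and 9.31 in MI (2.3-fold lower, log2 fold change -1.20, adjusted p = 0.00028), and its auxiliary subunit Cacna2d1 was 1.72-fold lower. Of 21 contractile genes of the ventricle 1 rose and 4 fell, 0 held. Falls numbered 2 without KO sham replicate 2 or KO MI replicate 1 and 0 without KO MI replicate 2. Their log2 fold changes ran from -0.64 to 0.70. The mean over these 21 genes was 12.02 and 12.13 in the KO sham arrays and 11.98 and 12.03 in the KO MI arrays. The channel list, over the same arrays, read 7.74 and 7.99 against 7.07 and 7.05. Its genes lie at lower levels than the contractile genes, and whether changes compare across levels was not tested. In WT 1 of the 21 contractile genes rose and 7 fell.

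Fatty acid uptake and oxidation fell in 11 of 37 members, 5 held, and rose in 0 (1 without KO sham replicate 2), with a median of -0.25; falls numbered 7 without KO sham replicate 2 and 5 without KO MI replicate 1. The held falls named by the rule included regulators. Esrrg, an orphan nuclear receptor of oxidative metabolism, read 8.53 and 8.49 in sham and 7.46 and 7.37 in MI (2.14-fold lower, log2 fold change -1.09, adjusted p = 0.000319), and Ppargc1a, the coactivator PGC-1 alpha, read 10.63 and 10.60 in sham and 9.72 and 9.87 in MI (1.76-fold lower, log2 fold change -0.82, adjusted p = 0.00171). Both were lower on each infarcted array. Of 35 respiratory chain subunits 1 rose (0 without either KO MI array) and 2 fell, against 10.5% and 10.3% over all genes. Their median was -0.05. There was 1 fall without either WT sham array, KO sham replicate 1 or KO MI replicate 2, and 0 without KO MI replicate 1. Of 25 genes of the tricarboxylic acid cycle and related oxidation 0 rose (1 without KO MI replicate 1) and 2 fell, again against 10.5% and 10.3%. Falls numbered 4 without KO sham replicate 1 and 1 without either WT sham array, KO sham replicate 2 or either KO MI array.

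Genes of uninjured fibroblasts fell, 7 of 18 with 5 held, and 1 rose (median -0.53). Dpt, dermatopontin, read 10.57 and 10.55 in sham and 9.35 and 9.17 in MI (2.46-fold lower, log2 fold change -1.30, adjusted p = 0.000102), and Ecm2, a small matrix protein, read 8.02 and 8.55 in sham and 6.41 and 6.64 in MI (3.39-fold lower, log2 fold change -1.76, adjusted p = 0.00125). Of 16 genes of fibroblast activation 6 rose, 5 held, and 5 fell, 1 held (median 0.30). Falls numbered 3 without KO sham replicate 1 or KO MI replicate 2 and 1 without KO MI replicate 1. Of 22 proteoglycan and hyaluronan genes 6 rose and 6 fell, 5 held each way (median -0.31). Among their falls Aspn and Ogn, which fibroblasts make, were 2.66-fold and 2.05-fold lower. Of 15 smooth muscle and pericyte markers 5 fell (3 without KO sham replicate 1, 2 without KO MI replicate 2) and 2 rose (1 without KO MI replicate 1), with a median of -0.20. Rgs5, a pericyte marker, read 10.45 and 10.60 in sham and 9.48 and 9.73 in MI (1.88-fold lower, log2 fold change -0.91, adjusted p = 0.00114), whereas the adhesion molecule Mcam rose 2.18-fold. Over all genes 10.5% rose and 10.3% fell, the shares to set beside the smooth muscle and endothelial lists. Of 20 endothelial markers 2 rose and 4 fell. Falls numbered 2 without either WT sham array, KO sham replicate 1 or KO MI replicate 1, and 1 without KO MI replicate 2. Plvap, the diaphragm protein of leaky vessels, was 2.32-fold higher (log2 fold change 1.21, adjusted p = 0.000471).

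Of 25 muscle ubiquitin ligases, ligase subunits and substrates 3 rose and 3 fell (6 without KO sham replicate 1, 1 without KO MI replicate 1), shares near those over all genes (10.5% and 10.3%), with a median of -0.03. The held calls were Rbx1, the RING subunit of cullin ligases (2.2-fold higher, log2 fold change 1.14, adjusted p = 0.00028), and Nfkbia, already described. Trim63, the ligase MuRF1, had a log2 fold change of -0.09 (adjusted p = 0.774) and was added outside the naming rule. Of 21 calcineurin, NFAT and MEF2 genes 7 fell (4 without either WT sham array or KO sham replicate 1, 3 without either KO MI array), 2 held, and 1 rose (median -0.35). Rcan1, whose short form calcineurin induces, read 9.72 and 9.79 in sham and 11.17 and 11.02 in MI (2.53-fold higher, log2 fold change 1.34, adjusted p = 0.00155), while Rcan2 read 11.37 and 11.30 in sham and 10.63 and 10.52 in MI (1.69-fold lower, log2 fold change -0.75, adjusted p = 0.00185) and Mef2a was 1.72-fold lower. The relatives Rcan1 and Rcan2 moved in opposite directions.

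Of 23 cell death regulators 9 rose (4 without KO sham replicate 2 or KO MI replicate 2, 3 without KO MI replicate 1), 2 held, and 1 fell (0 without KO sham replicate 2 or either KO MI array). The necroptosis kinase Ripk3 read 5.20 and 5.33 in sham and 6.47 and 6.78 in MI (2.57-fold higher, log2 fold change 1.36, adjusted p = 0.000186), and the inflammatory caspase Casp4 was 2.12-fold higher. Of 31 cell cycle genes 6 rose and 6 fell, against 10.5% and 10.3% over all genes. Falls numbered 10 without KO sham replicate 1, 2 without KO sham replicate 2, 3 without KO MI replicate 1 and 1 without KO MI replicate 2. Gadd45g, a stress-induced growth arrest gene, read 5.07 and 5.98 in sham and 8.58 and 8.63 in MI (8.44-fold higher, log2 fold change 3.08, adjusted p = 7.29e-05), and Mki67, present in dividing cells, read 5.94 and 6.46 in sham and 4.87 and 4.63 in MI (2.73-fold lower, log2 fold change -1.45, adjusted p = 0.00133). Interferon-stimulated genes rose in 11 of 27 members (6 without KO sham replicate 2 or KO MI replicate 1), 5 held, and 1 fell, held. Slfn1 and Slfn2 were 16.1-fold and 5.06-fold higher. Of 17 clock genes 4 rose and 3 fell (5 without KO sham replicate 2), against 10.5% and 10.3% over all genes. Bhlhe40 of that list, a repressor that hypoxia also induces, rose 3.54-fold.

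The WT hearts served to ask where the KO response differed. By the same threshold 2457 genes rose (12.3%) and 3152 fell (15.8%) in WT MI against WT sham. These were 1449 and 2008 without WT sham replicate 1 and 1508 and 1954 without WT sham replicate 2, so the shares that follow depend on single arrays. Of the KO rises 1595 were also WT rises, which is 76.0% of the KO and 64.9% of the WT rises. Of the KO falls 1719 were also WT falls, 84.1% of the KO and 54.5% of the WT falls, and 1 gene fell in KO and rose in WT. A call in 1 genotype and not in the other does not show a difference. Tested directly, as the difference of the 2 responses, 0 genes passed (0%) with limma. At an unadjusted p under 0.05 there were 943 with a more positive and 694 with a more negative KO response. Those counts moved with single arrays, from 2143 and 1434 without KO sham replicate 2 to 499 and 423 without WT sham replicate 2. They were 614 and 442 without WT sham replicate 1, 1187 and 1110 without WT MI replicate 1, and 664 and 423 without KO MI replicate 1. With an intensity trend in the prior 2 and 2 passed: Cd59a and Nppa on the positive side, Plscr1 and Snora31 on the negative side. Cnn1, Itga8 and Nppa passed without WT sham replicate 1, and Snora31 with cyclic loess; Cnn1, Itga8 and Snora31 are named for that count.

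The genes nearest to a difference are given with their intervals, none of them past the adjusted threshold. Nppa rose by 4.09 in KO and by 1.64 in WT (difference 2.45, 95% interval 1.66 to 3.24, limma adjusted p = 0.161). The values were 10.19 and 11.06 in WT sham and 12.27 and 12.25 in WT MI. The sham arrays of the genotypes were apart and the 4 infarcted arrays close together. Nppa is also an atrial gene, and for the atrial Myl4 the values were 8.26 and 10.58 in WT sham and 6.93 and 6.58 in WT MI. Its part in the Nppa values was not tested. Cd59a, which shields cells from complement, had log2 fold changes of 0.33 in KO and -1.24 in WT (difference 1.57, 95% interval 1.09 to 2.06, limma adjusted p = 0.161). For Fbxl22, an F-box protein of the cardiac Z-disc, they were 0.24 in KO and -1.11 in WT (difference 1.35, 95% interval 0.87 to 1.82, limma adjusted p = 0.171). Ephx1, an epoxide hydrolase, and Idua, a lysosomal hydrolase, were the other 2 with a more positive KO response (log2 fold changes 0.11 and -0.78 in KO, -1.05 and -1.91 in WT).

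On the negative side Grk3, a receptor kinase, had log2 fold changes of -1.07 in KO and 0.30 in WT (difference -1.37, 95% interval -1.77 to -0.97, limma adjusted p = 0.161). It read 7.001 and 7.04 in sham and 6.05 and 5.85 in MI in KO. The WT values were 6.14 and 6.18 in WT sham and 6.54 and 6.38 in WT MI. Both KO sham arrays lay above all WT arrays and both KO MI arrays below them. The urokinase receptor Plaur rose by 2.84 in KO and 4.01 in WT (difference -1.18, 95% interval -1.56 to -0.79, limma adjusted p = 0.161), and the placental growth factor Pgf by 2.82 and 4.20 (difference -1.38, 95% interval -1.85 to -0.91, limma adjusted p = 0.171). Sla, an adaptor of leukocytes, and Plscr1, a phospholipid scramblase, rose in both genotypes too, by 1.80 and 1.56 in KO and by 3.22 and 2.65 in WT. Among neutrophil and macrophage genes already described, S100a8 rose by 4.97 in KO and 6.195 in WT (difference -1.22, 95% interval -2.24 to -0.20, limma adjusted p = 0.563), and Chil3 by 4.09 and 5.71 (difference -1.61, 95% interval -2.39 to -0.84, limma adjusted p = 0.372). The median change of the neutrophil list was 2.98 in KO and 4.07 in WT, over genes of which none differed past the adjusted threshold. The monocyte and recruited macrophage list, which holds Chil3, had medians of 1.833 in KO and 2.234 in WT. Its median difference was -0.115, against -0.751 for the neutrophil list. Its mean level was 8.186 and 8.04 in KO MI and 8.525 and 7.894 in WT MI. S100a8, Chil3 and Acta1 are outside the 5 genes picked each way, and their differences were singled out after their values were seen. Acta1 rose by 1.93 in KO and had a log2 fold change of 0.05 in WT (difference 1.89, 95% interval 1.13 to 2.65, limma adjusted p = 0.256). The WT values, 10.29 and 10.01 in WT sham and 10.48 and 9.91 in WT MI, lay above every KO array. Fbxo32 itself, in KO below the median gene level of 5.80 on all 4 arrays, gave 0.37 in KO and -0.49 in WT (difference 0.87, 95% interval 0.30 to 1.43, limma adjusted p = 0.487).

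**Figure D4:**
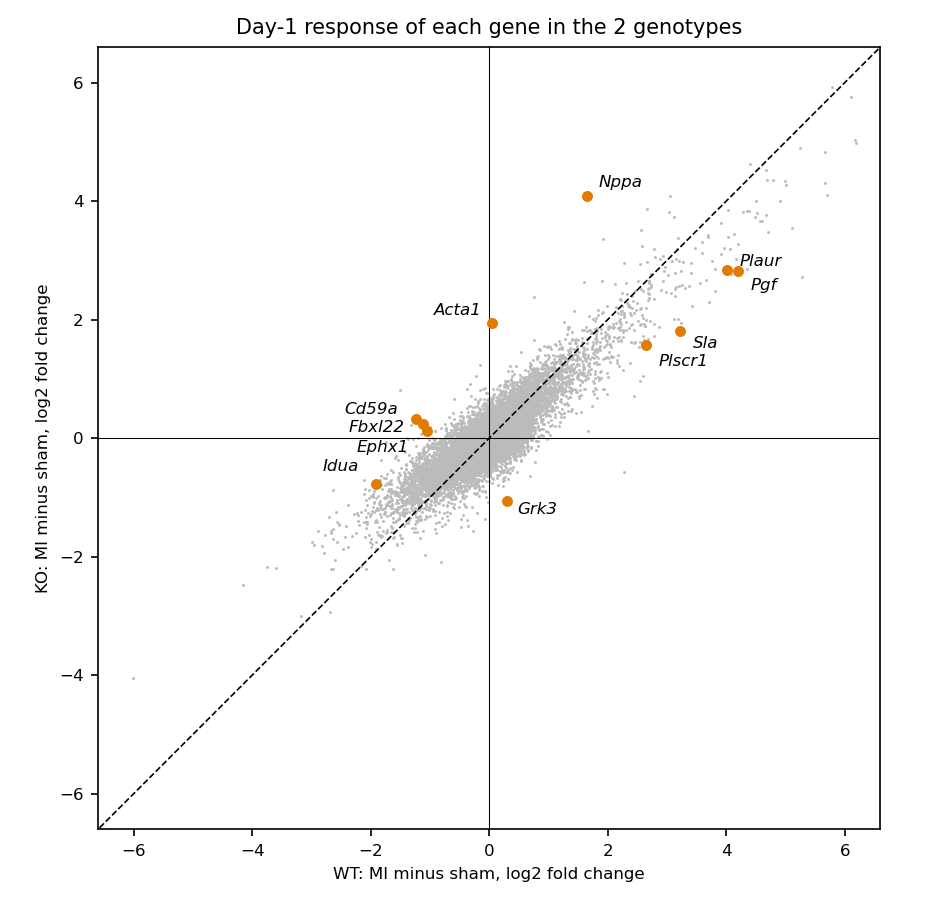
Log2 fold change of each of 19938 genes 1 day after infarction in WT (horizontal) and KO hearts (vertical), with equal responses on the dashed line; orange points are the 10 genes with the smallest p for a difference, 5 in each direction, and Acta1. Most genes lie along the line, Nppa and Acta1 lie above it and Plaur, Pgf, Sla, Plscr1 and Grk3 below it, and 0 genes passed the adjusted threshold for a difference.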

How the data were processed

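The authors deposited log2 expression values for 35556 probes of the Affymetrix Mouse Gene ST array, made with Affymetrix Expression Console and RMA, per the submitters' processing notes, with no version stated there. RMA as commonly run equalises the arrays' distributions, which would reduce a shift shared by most genes. The platform annotation gave 1 gene for 21789 probes, several for 1621 and did not list 12146. The probe with the highest mean over the 8 arrays stood for each of 19938 genes, with no filter on low values. The number of arrays, 2 a group, limits the precision.

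The 4 group means were fitted to all 8 arrays with limma 3.58.1 in R 4.3.3 (4 residual and 5.57 prior degrees of freedom), two-sided, with Benjamini-Hochberg adjustment over all genes. Code was tested on simulated data. Groups come from the labels. The members, the 63 gene lists (1294 symbols, 1200 measured) and the tests were chosen with earlier results of these data known. The naming rule took Fbxo32 and the 15 largest held rises and falls whose arrays do not overlap. It added up to 6 members a list by smallest p, and the 5 with the smallest p for a difference each way. The rule picked 369 genes, the named genes counted below. The text describes a part of them, and some lists are not described. Genes picked for a small p or for arrays without overlap tend to show separate arrays, so that separation is no added support. Clone, predicted and receptor-segment names (182 called genes) were counted only. Alternatives were weights per array, a robust prior, an intensity trend, a filter on the lowest 33.3% of genes, every probe or the probes' mean, the 2 KO groups alone, cyclic loess, median centring, a replicate block, a 2-fold minimum and leaving out each array.

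Promoter sequences are RefSeq's, build GRCm38.p6; the 250 bases before the start were searched. Figures were drawn with matplotlib.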

Additional observations from a re-analysis of the deposited data

Results flagged for a closer look

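Probes that name no single gene were left out of every comparison above and also carried a signal. In a fit of all 35556 probes of the array, 266 of the 1621 probes annotated to several genes were higher in KO MI than in KO sham, and so were 401 of the 12146 probes that the annotation does not list (limma, adjusted p under 0.05). Their genes are unnamed here.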

How the results depend on the processing

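With 2 arrays a group, 1 array can decide a call. Leaving out each array in turn gave 1271 to 2117 rises and 970 to 2081 falls in KO MI against KO sham, against 2098 and 2044 with all 8. A lone array takes its spread from the other groups. A 2-fold minimum left 676 rises and 350 falls. The other alternatives stayed within 1.5 times these counts. For the difference of the responses, 0 genes in each direction with all arrays, the fits without 1 array gave 0 to 3 more positive and 0 more negative, an intensity trend 2 and 2, and cyclic loess 0 and 1. Same-numbered KO sham and KO MI arrays did not deviate together (r = -0.12 across genes), so the numbers were not taken as pairs. With the replicate block there were 1934 rises, 1877 falls and 0 differences; with the KO sham numbers crossed, chosen after seeing the data, 2202 rises, 2183 falls and 0 differences. Of 369 named genes 309 were called and 250 held; 59 lost the call without some array and 14 under another alternative, and 0 changed direction with a call. Levels near the low end of the array limit folds, and detection was not tested.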
